A study of Drosophila melanogaster with 18 samples.

Results

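Flies that carried either of 2 Dec2 transgenes were compared, as a single group, with flies that carried the Gal4 driver alone. The comparison and the gene lists below were chosen with earlier results of these data known. The pooled group was formed by genotype label. It held 6 of the 9 Illumina libraries and 6 of the 9 Nanopore libraries, so that all 18 libraries of the series entered: on each platform 3 of GR23E10-gal4;UAS-dec2P384R and 3 of GR23E10-gal4;UAS-dec2WT, set against 3 of the driver control GR23E10-gal4;+. Each library came from RNA of about 70 whole adult flies, reared at 25 °C with 12 h of light and 12 h of darkness and collected at zeitgeber time 3, that is 3 h after lights on. The labels give the replicates of a genotype as independent biological samples and state neither sex nor age, and name no batch of collection or of sequencing. Whether the platforms shared RNA is not given in the sources used here, so a gene that moved on both is not counted as 2 independent observations.

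Dec2 is a mammalian basic helix-loop-helix protein that represses transcription and feeds back on the circadian clock; its P384R form was found in people who sleep little without ill effect. Gal4, a yeast activator, turns on any transgene that lies behind UAS sites, and the GR23E10 driver is used to reach a small set of neurons that includes sleep-promoting cells of the dorsal fan-shaped body. Those neurons are a minute part of a whole fly, so the measured RNA is almost all from other tissues. Fewer cells of a type and less RNA per cell cannot be told apart in such samples. Each transgene was represented by 1 UAS stock, and the control had no UAS insertion, so an action of Dec2 and a difference in genetic background between the stocks cannot be told apart. RNA of the transgenes themselves was not analysed here.

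Illumina libraries held 18057117 to 28293197 reads on genes and Nanopore libraries 1922380 to 4659601 estimated counts. Markers of male flies were present in all libraries: roX1, an RNA of the male dosage compensation complex, had 54.9 to 76.9 FPKM (fragments per kilobase of gene, scaled to library size) in transgenic libraries and 59.3 to 68.2 FPKM in control libraries, whereas the female yolk gene Yp1 reached at most 1.69 FPKM in any transgenic and 1.14 FPKM in any control library. Testis markers passed the test in 0 of 25 cases on each platform. The same count was 0 of 15 for neuron markers and 0 of 20 for muscle markers. Of all genes 2.45% passed on Illumina and 0.588% on Nanopore, so 0 calls do not set such short lists apart. On Nanopore 1 library stood apart in its clock genes: tim, a repressor in the fly clock, had 247 CPM (counts scaled to library size) in dec2WT replicate 1, against 28.4 to 44.9 CPM in the other transgenic libraries and 29.1 to 39.7 CPM in control libraries. The period gene per did the same, with 23.8 CPM in that library. Without it the Nanopore comparison called 84 genes in place of 67.

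The first principal component separated transgenic from control libraries on both platforms. On Illumina it held 30.0% of the variance, with scores of -14.8 to -6.5 in the 6 transgenic libraries and 20.4 to 31.1 in the 3 control libraries. On Nanopore it held 24.5%, and the scores ran from -22.2 to 4.5 in transgenic libraries and from 20.2 to 28.2 in control libraries. The highest transgenic Nanopore score belonged to dec2P384R replicate 3, and the count of called genes without that library was 98.

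**Figure D1:**
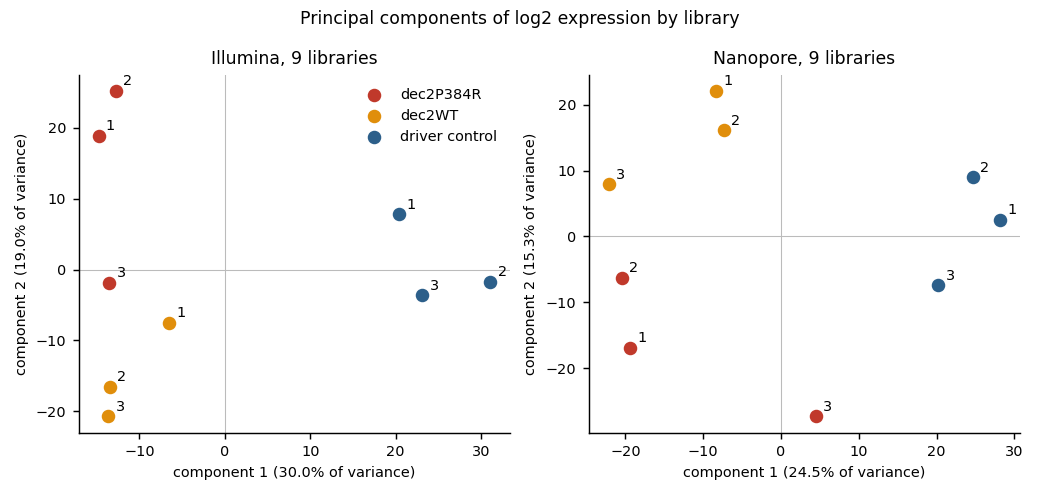
Scores of each library on the first and second principal components of log2 expression, Illumina left and Nanopore right, with replicate numbers beside the points. All transgenic libraries (red and orange) lie left of all control libraries (blue) on component 1, which holds 30.0% of the variance on Illumina and 24.5% on Nanopore.

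The comparison asked which genes differ from the driver control when both transgenes are pooled. On Illumina, limma with Benjamini-Hochberg adjustment called 329 of 13418 genes at an adjusted p under 0.05, which is 2.45%; 175 were higher (1.30%) and 154 lower (1.15%) in transgenic flies. DESeq2 on the recovered reads called 557. On Nanopore, edgeR's quasi-likelihood test called 67 of 11393 genes (0.588%), 24 higher (0.211%) and 43 lower (0.377%). DESeq2 with its own scaling called 150 on Nanopore, 72 higher and 78 lower. Of the Illumina calls 326 had no overlap between the 6 transgenic and the 3 control libraries, and so had 66 of the Nanopore calls; among all genes tested such separation occurred in 7.36% on Illumina and 6.05% on Nanopore. The median size of the log2 difference was 0.91 among Illumina calls and 1.55 among Nanopore calls, while the median over all genes was -0.0020 and 0.0039. Changes of at least 4-fold were few on Illumina, 17 higher and 20 lower. Illumina differences are on the log2(FPKM + 0.5) scale, which understates those of low genes.

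The counts fell most in refits without a control library. Such refits left a smaller control group, and the part of lost power in the falls was not tested. Without 1 transgenic library the counts were 252 to 406 on Illumina and 54 to 98 on Nanopore. With control replicate 1, 2 or 3 left out, the Illumina count fell to 204, 139 or 155, and the Nanopore count to 31, 38 or 46. In each of the 9 refits without a library, 112 of the 329 Illumina calls and 24 of the 67 Nanopore calls passed, and 0 calls changed sign. Since the 2-group model puts any gap between the transgenes into the spread, it is less able to call genes in which the transgenes differ. When dec2P384R was set against dec2WT, 105 Illumina genes (0.783%) and 15 Nanopore genes (0.132%) differed. Among the pooled calls the transgenes differed in 8 genes on Illumina (2.43% of the calls) and in 1 on Nanopore (1.49%). These shares were above those over all genes. Both comparisons used the same transgenic libraries, and the excess was not tested.

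Across platforms, 210 of the 329 Illumina calls were also tested on Nanopore, and 40 of them (19.0%) were called there in the same direction and 0 in the opposite one. From the Nanopore side the 40 genes were 66.7% of the 60 calls that were tested on Illumina. On Nanopore 189 of the 210 genes (90.0%) lay on the same side of the control, and 90 (42.9%) had libraries without overlap. Over all genes tested on Nanopore, 6.05% had no overlap in either direction and 0.588% were called. Across the 10800 genes tested on both platforms, the log2 differences had a Pearson r of 0.511. A same-side share over all genes is not given here. The genes called on both were 13 higher and 27 lower in transgenic flies, and 12 of them passed in all 18 refits without a library: mthl8, CG32726, CG10725, CG31832 and CG6961 on the high side and LysP, CG30031, CG30025, CG17322, CG9259, CG10550 and CG9616 on the low side.

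**Figure D2:**
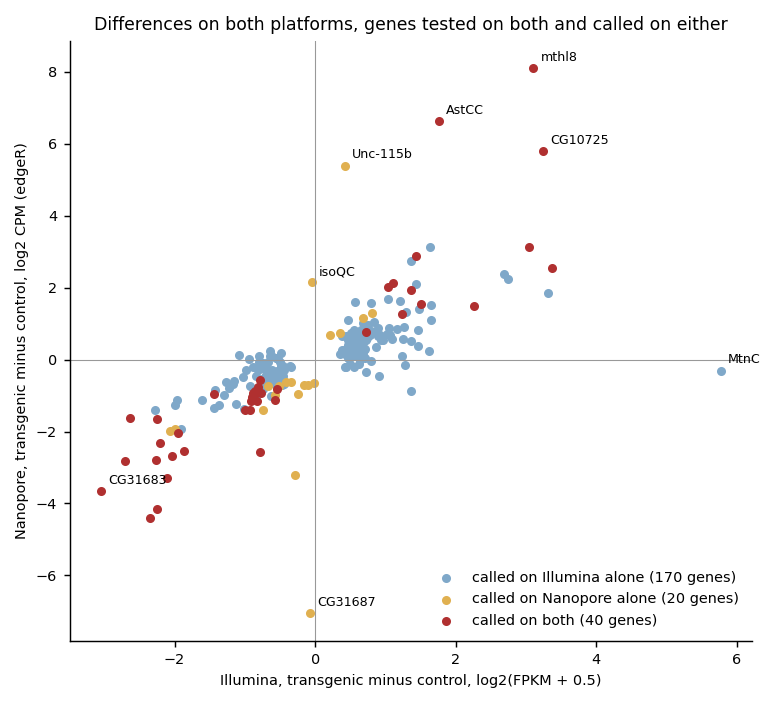
Log2 difference, transgenic minus control, on Illumina (horizontal) and Nanopore (vertical) for genes tested on both and called on either. The 40 genes called on both (red) all lie in the lower left or upper right; MtnC lies far right near zero on Nanopore, while Unc-115b and CG31687 lie far from zero on Nanopore alone. Positions of genes with no control count, such as mthl8 and AstCC, depend on the prior count of the Nanopore fit.

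Among the genes higher on both platforms was mthl8 (FBgn0052475, 3L:22428-26308), a member of the methuselah-like family of G protein-coupled receptors whose founding member, methuselah, is known for its effect on fly lifespan. Its level was 3.21 to 4.71 FPKM in transgenic libraries, with a median of 3.64, and 0 FPKM in all 3 control libraries. Not 1 control library held a read of it on either platform, and every transgenic library did. Measured against a floor of 3 counts per control library, the Illumina level of mthl8 was at least 102-fold higher. Its Nanopore level was at least 12.8-fold higher, where it had 6.76 to 13.5 CPM (median 9.55) in transgenic and 0 CPM in control libraries. The adjusted p was 1.1e-06 with limma and 9.26e-05 with edgeR. Of the 11 receptors of the family tested on Illumina, mthl8 rose and mthl3 and mthl4, which lie side by side on 2R, fell by 0.68 each on the log2 scale (adjusted p = 0.0253 and 0.0268). The falls of mthl3 and mthl4 were lost without control replicate 2 (adjusted p of mthl3 0.177) and without control replicate 1 (adjusted p of mthl4 0.111), among other libraries, and neither passed without control replicate 2 or 3. On Nanopore neither was called.

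Of the 13 genes that rose on both platforms, 9 are known by number only, among them the 4 that passed in all refits. CG32726 had 15.8 to 33.9 FPKM (median 27.4) in transgenic libraries and 2.13, 2.07 and 2.05 FPKM in control libraries, a log2 difference of 3.37 ± 0.19 (SE; adjusted p = 2.56e-06, limma). CG31832 had 31.3 to 49.3 FPKM (median 43.7) in transgenic and 4.88, 3.30 and 6.11 FPKM in control libraries, a difference of 3.04 ± 0.18. The groups of both genes were far apart, and on Nanopore the differences were 2.54 ± 0.32 for CG32726 and 3.12 ± 0.33 for CG31832 with edgeR. CG10725 was nearly absent from the control, with 0.212, 0.250 and 0 FPKM there and 3.66 to 11.4 FPKM (median 5.12) in transgenic libraries. The level of CG6961 was the most even, 8.14 to 9.32 FPKM (median 8.84) in transgenic libraries and 1.69, 1.56 and 1.13 FPKM in control libraries (log2 difference 2.26 ± 0.11). CG6961 lies opposite CR6900 and next to CG18259 at X:18781265-18788210, and all 3 were called higher on Illumina; with the strand setting of the counting not given, reads of CG6961 and CR6900 cannot be told apart.

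AstCC, which encodes the neuropeptide allatostatin double C, also rose on both platforms. Its level was low: 0.776 to 1.98 FPKM (median 1.48) in transgenic libraries and 0.119, 0 and 0.0382 FPKM in control libraries (log2 difference 1.76 ± 0.23, adjusted p = 0.00184, limma). On Nanopore no control library had a count, transgenic libraries had 1.56 to 5.37 CPM, and AstCC was at least 4.46-fold higher than a floor of 3 counts per library; without control replicate 1 its edgeR adjusted p was 0.0521. Sep5, a septin, had 1.85 to 2.94 FPKM in transgenic and 0.300 to 0.780 FPKM in control libraries, with no overlap on either platform. The nucleotidase gene NT5E-2 rose by 0.72 ± 0.11 on Illumina and 0.77 ± 0.15 on Nanopore, and its Illumina rise was the smallest among the genes called on both. The Nanopore call of Sep5 was lost without control replicate 1 or 2 (adjusted p up to 0.0755), and that of NT5E-2 without any 1 of 7 libraries (up to 0.219, without control replicate 1).

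**Figure D3:**
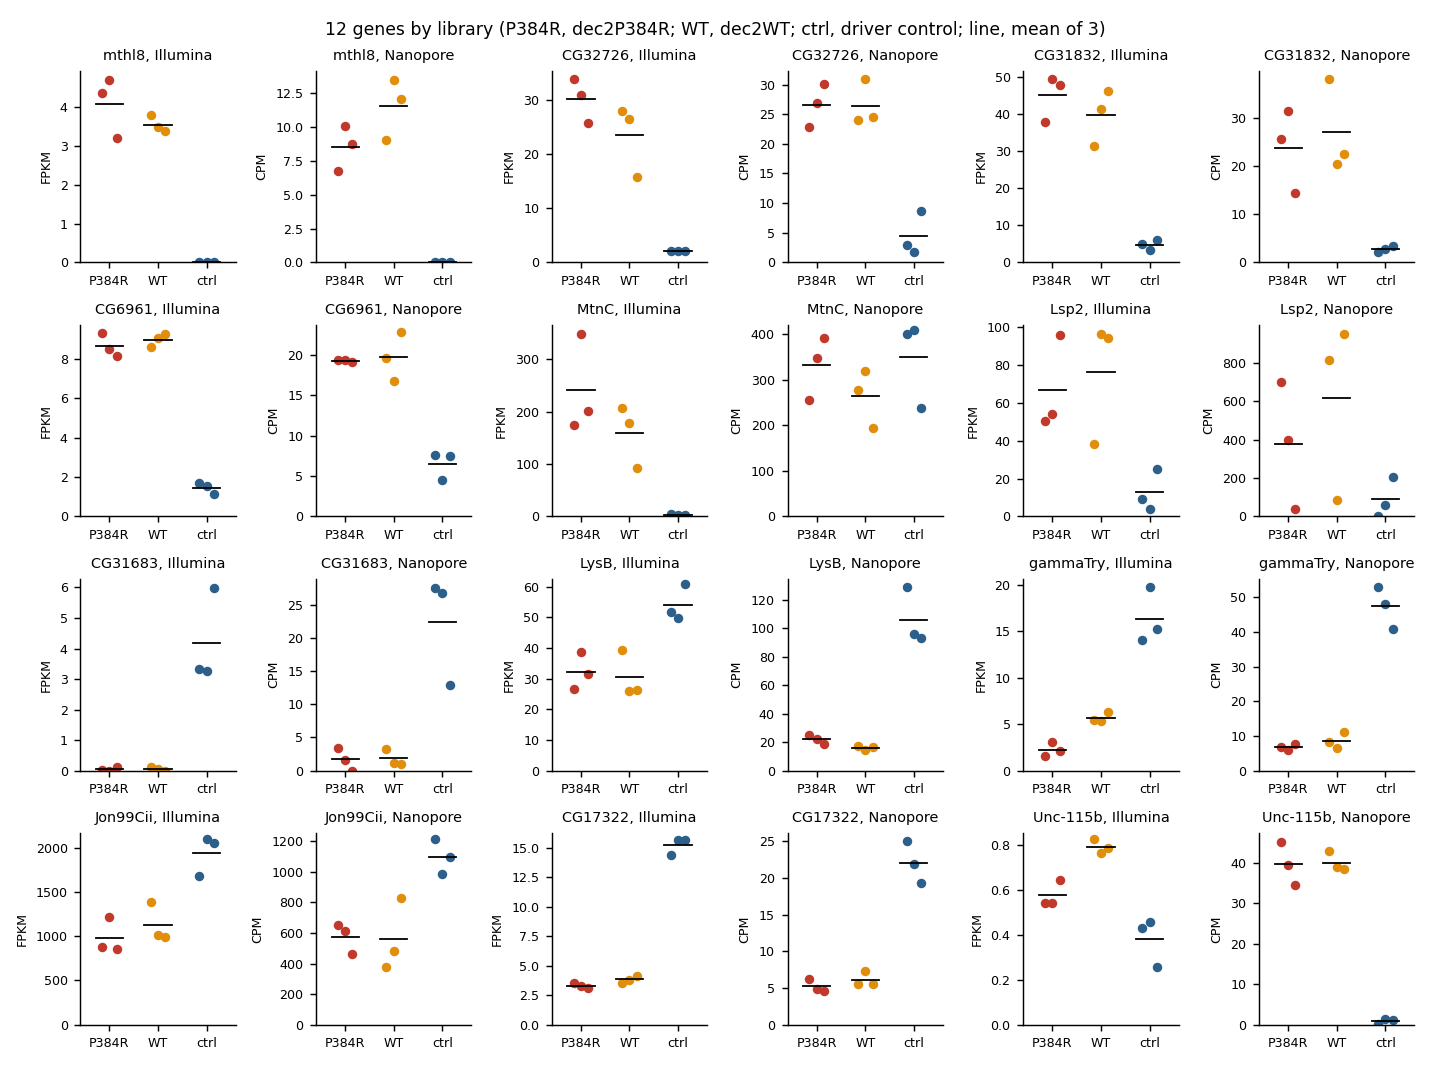
Levels of 12 genes in each library, in FPKM on Illumina and CPM on Nanopore, by genotype; the line is the mean of 3 libraries. The groups are apart on both platforms for mthl8, CG32726, CG31832, CG6961, CG31683, LysB, gammaTry, Jon99Cii and CG17322. MtnC and Lsp2 are apart on Illumina alone, and in Unc-115b the gap on Nanopore is 5.39 on the log2 scale against 0.43 on Illumina.

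Among the falls, CG31683 (2L:20447734-20449964) was close to absent from transgenic flies. It had 0 to 0.116 FPKM (median 0.0359) in transgenic libraries and 3.32, 3.27 and 5.98 FPKM in control libraries, a log2 difference of -3.05 ± 0.20 (adjusted p = 8.05e-06, limma). On Nanopore it fell by 3.65 ± 0.40. Its neighbour CG31687 was called on Nanopore alone: on Nanopore 5 of 6 transgenic libraries had 0 CPM, the sixth had 0.513 CPM and control libraries had 16.3, 8.70 and 28.6 CPM, whereas on Illumina CG31687 had 0.773 to 0.973 FPKM in transgenic and 0.722 to 1.14 FPKM in control libraries. CG34038 had 0 to 0.198 FPKM in transgenic libraries against 2.27, 2.58 and 2.42 FPKM in control libraries, and on Nanopore it fell by 4.15 ± 0.44. CG17322, an enzyme of the UDP-glycosyltransferase family that couples sugars to small molecules, had 3.15 to 4.11 FPKM (median 3.55) in transgenic and 14.4, 15.6 and 15.6 FPKM in control libraries. Its difference was -1.95 ± 0.10 on Illumina (adjusted p = 1.47e-06, limma) and -2.04 ± 0.17 on Nanopore.

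Named genes of other functions also fell on both platforms. The gene ush, whose product is a cofactor of GATA transcription factors, had 0.984 to 1.61 FPKM (median 1.30) in transgenic and 3.04, 3.18 and 2.93 FPKM in control libraries. Peritrophin-15a, a protein of the chitinous lining of the gut, had 88.5 to 131 FPKM (median 105) in transgenic and 183, 193 and 173 FPKM in control libraries. GILT3, of a family of lysosomal thiol reductases, fell by 0.81 ± 0.13, and Frl, a formin that builds actin filaments, fell by 0.78 ± 0.17 on Illumina. None of the 4 had overlapping groups on either platform. On Nanopore, however, the call of ush was lost without control replicate 1 or 2 (adjusted p up to 0.156), that of Peritrophin-15a without control replicate 1 or 2 (up to 0.0915), that of GILT3 without any library (up to 0.21) and that of Frl without any but dec2P384R replicate 3. On Illumina the call of Frl was lost without dec2P384R replicate 1 or 3 or any control replicate.

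Counts in the gene lists below stand against all genes tested, of which 1.30% rose and 1.15% fell on Illumina. On Nanopore 0.211% of all genes rose and 0.377% fell. Several digestive serine proteases fell. Of 29 digestive serine proteases tested on Illumina, that is the trypsins and the midgut proteases named Jonah, 21 missed the threshold, 6 fell and 2 rose. Their median log2 difference was -0.54, against -0.0020 over all genes. On Nanopore 3 of 28 fell and 1 rose, with a median of -0.09. The summed level of the list was 11346 to 17399 FPKM in transgenic and 17596 to 22793 FPKM in control libraries, and on Nanopore the sums overlapped. The summed level of 13 midgut markers was 7368 to 10671 FPKM (median 7733) in transgenic and 9751 to 11212 FPKM (median 10188) in control libraries, so it too was lower at the median, with overlap; its part in the protease falls was not tested. Of the 13, PGRP-SC2 rose and the lipase gene mag fell on Illumina, Npc2f fell on Nanopore, and the median differences were -0.04 and 0.14. The Illumina count of midgut markers that fell was 4 without dec2P384R replicate 2 and 0 without any other library, PGRP-SC2 was lost without control replicate 1 or 2, and Npc2f was lost without control replicate 3. The Illumina count of proteases that fell was 2 without control replicate 2, 3 without control replicate 3 and 11 without dec2P384R replicate 2, and 0 rose without control replicate 2. On Nanopore the count that fell was 1 without any 1 of the control replicates.

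The 4 trypsin genes at 2R:11349061-11356128 were called lower on both platforms. For gammaTry the levels were 1.52, 3.07 and 2.11 FPKM in dec2P384R, 5.42, 5.36 and 6.25 FPKM in dec2WT and 14.0, 19.7 and 15.2 FPKM in control libraries. Every transgenic library was below every control library, and dec2P384R libraries were below dec2WT libraries. The pooled log2 difference of gammaTry was -2.04 ± 0.35 on Illumina (adjusted p = 0.00985, limma) and -2.68 ± 0.17 on Nanopore (adjusted p = 2e-06, edgeR). Its neighbours fell by 2.35 ± 0.31 (CG30025), 1.87 ± 0.24 (CG30031) and 1.45 ± 0.29 (deltaTry) on Illumina. These genes are close copies of one another, so their separate values are uncertain. Leaving out control replicate 2 ended the Illumina call of gammaTry (adjusted p = 0.0794) and that of deltaTry (0.158). The call of deltaTry also failed without control replicate 1 or 3 or dec2P384R replicate 2, and on Nanopore without 5 libraries (up to 0.185).

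Among the Jonah proteases, Jon99Fi had 17.8 to 34.4 FPKM (median 24.6) in transgenic and 73.8, 116 and 106 FPKM in control libraries, a difference of -1.96 ± 0.20 (adjusted p = 0.00028, limma). Jon65Ai fell by 1.29 ± 0.18. Both calls held in each refit without a library, but on Nanopore the groups of both genes overlapped. Jon99Cii was among the most abundant of them, at 882, 1215 and 853 FPKM in dec2P384R, 1380, 1008 and 992 FPKM in dec2WT and 1675, 2101 and 2052 FPKM in control libraries. It fell by 0.89 ± 0.16 on Illumina and 1.03 ± 0.19 on Nanopore, and its Illumina call was lost without control replicate 2 (adjusted p = 0.107) or 3 (0.0905) and its Nanopore call without 4 libraries (up to 0.153). Jon99Ci went the other way on Nanopore, with 231 to 469 CPM in transgenic and 119, 174 and 123 CPM in control libraries (adjusted p = 0.0354, edgeR; lost without 5 libraries, control replicates 1 and 3 among them). Try29F was 1 of the 2 proteases that rose on Illumina, by 1.65 ± 0.29; it failed without control replicate 2 (0.0816), and its gene overlaps CG18661 on the same strand.

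Lysozymes, which cleave bacterial cell walls and in flies serve digestion as well as defence, fell in part. LysP had 19.8 to 52.0 FPKM (median 28.5) in transgenic and 137 to 163 FPKM in control libraries, a log2 difference of -2.25 ± 0.28 (adjusted p = 0.00107, limma) and of -1.65 ± 0.19 on Nanopore. LysB had 14.3 to 25.3 CPM (median 18.3) in transgenic and 129, 96.1 and 93.0 CPM in control libraries on Nanopore, a difference of -2.56 ± 0.16 (adjusted p = 1.36e-06, edgeR), and fell by 0.79 ± 0.15 on Illumina. The most abundant member, LysD, averaged 830 FPKM in transgenic and 783 FPKM in control flies and did not pass on either platform. Of 6 tested on Illumina, 2 fell, 1 rose and 3 did not pass. Of 4 on Nanopore, 3 fell. On Nanopore LysE was lost, and 2 fell, without dec2P384R replicate 2, dec2WT replicate 2 or 3, or control replicate 1 or 2. The summed level of the list had a median of 900 FPKM in transgenic and 1184 FPKM in control libraries on Illumina. On Nanopore the median sum was 1370 CPM in transgenic and 1245 CPM in control libraries. The sums overlapped on both platforms. The Illumina call of LysB was lost without any 1 of the 3 control replicates (adjusted p 0.0616 to 0.119), and the rise of LysX was lost without control replicate 2 (0.172) or 3 (0.134) or dec2P384R replicate 2 (0.0584). On Illumina 1 lysozyme fell without control replicate 1, 2 or 3, and 0 rose without control replicate 2 or 3 or dec2P384R replicate 2. LysB, LysE and LysD are close copies, and reads may be split between them.

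Of 10 midgut lipases tested on Illumina 3 fell and 0 rose, with a median of -0.16. CG6296 had 0.815 to 4.04 FPKM in transgenic and 6.71, 10.2 and 7.68 FPKM in control libraries, and the call was lost without control replicate 2 (adjusted p = 0.0679), when 0 lipases fell; 1 fell without control replicate 1 or 3 or dec2WT replicate 2. On Nanopore 0 of 10 lipases were called at an adjusted p under 0.05 (1 fell without dec2WT replicate 2), and the abundant lipase CG6295 had 226 to 346 CPM in transgenic and 223 to 369 CPM in control libraries. Starch and sugar digesting enzymes gave 0 calls among 14 on each platform, although 11 lay above the control on Illumina and 14 on Nanopore, with medians of 0.43 and 0.47. On Nanopore 1 of them rose without control replicate 2.

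**Figure D4:**
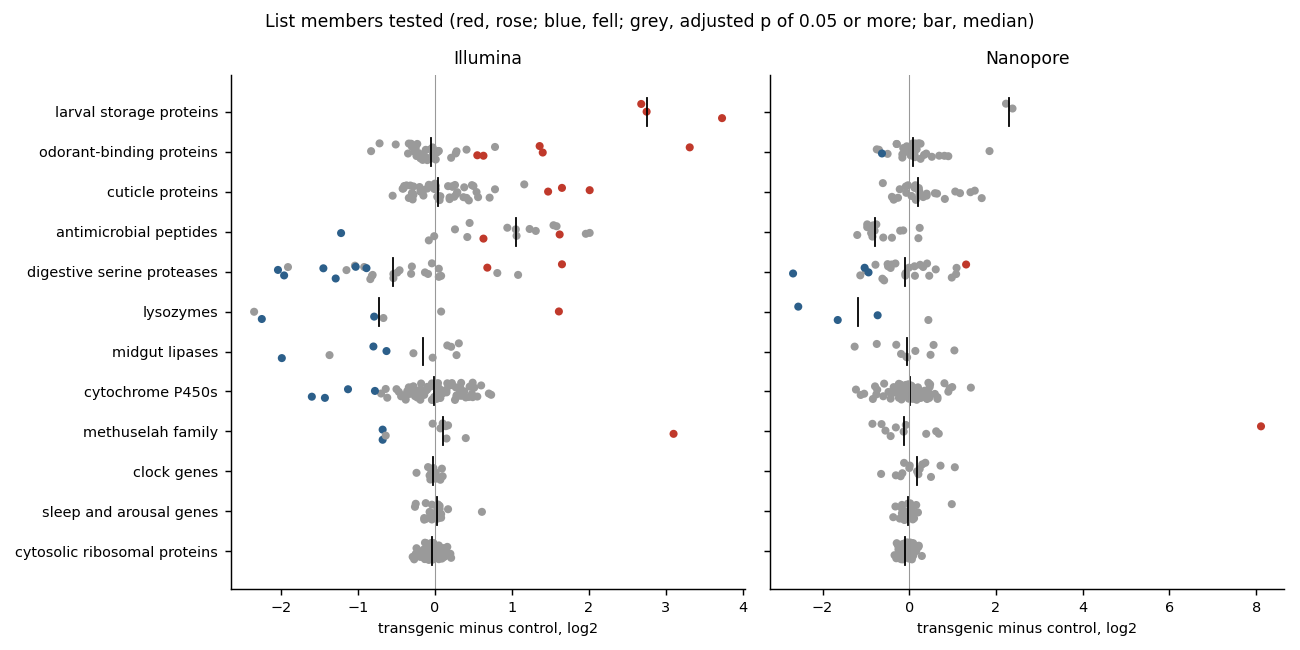
Log2 difference, transgenic minus control, of each tested member of 12 gene lists on Illumina (left) and Nanopore (right); bars are medians. Digestive serine proteases have a median of -0.54 on Illumina and -0.09 on Nanopore, and antimicrobial peptides 1.05 and -0.78; clock genes and ribosomal proteins lie close to zero on Illumina.

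Larval storage proteins rose on Illumina. These hexamerins are made by the larval fat body, fill the blood before metamorphosis and serve as an amino acid store. All 3 tested members rose: Lsp1alpha by 3.73 ± 0.55, Lsp1beta by 2.75 ± 0.49 and Lsp2 by 2.68 ± 0.47. Lsp1beta had 64.1 to 249 FPKM (median 134) in transgenic and 27.3, 6.99 and 38.7 FPKM in control libraries, so the control itself varied widely while the groups stayed apart. For Lsp2 the levels were 38.1 to 96.5 FPKM (median 74.2) in transgenic and 9.35, 4.11 and 25.1 FPKM in control libraries, and the call was lost without control replicate 1 (adjusted p = 0.0542) or 2 (0.0534). On Nanopore Lsp2 had 38.9 to 949 CPM (median 549) in transgenic and 3.13, 61.3 and 207 CPM in control libraries; the groups overlapped, and the difference of 2.38 ± 1.03 had an adjusted p of 0.412 with edgeR. On Nanopore 0 of 2 storage proteins tested were called. Of 8 fat body markers 0 were called, with a median of 0.00, on both platforms. With 2.45% of all genes called on Illumina, 0 calls do not set so short a list apart. On Illumina 1 of these markers rose without dec2WT replicate 1 or control replicate 3.

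Odorant-binding proteins carry small hydrophobic molecules, in sensory hairs and in other tissues. On Illumina 5 of 38 rose, 0 fell, and the median was -0.05. Obp99b had 398, 328 and 380 FPKM in dec2P384R, 91.8, 199 and 250 FPKM in dec2WT and 41.3, 8.78 and 39.8 FPKM in control libraries, a pooled difference of 3.31 ± 0.53 (adjusted p = 0.00631, limma). The Illumina groups were apart, with dec2WT replicate 1 the lowest transgenic library, and on Nanopore the groups overlapped. The rise of Obp56d was the most even: 506 to 615 FPKM (median 592) in transgenic and 236, 203 and 238 FPKM in control libraries. Obp58c had no control read on either platform and 0.543 to 1.57 FPKM in transgenic libraries. Without control replicate 3 the Illumina count of rises was 3. On Nanopore Obp49a alone was called, lower by 0.63, and this was lost without any 1 of 6 libraries, each control replicate among them.

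Cuticle genes gave 3 rises among 52 on Illumina and 0 calls among 28 on Nanopore. Cpr72Ec had 39.9 to 103 FPKM (median 87.6) in transgenic and 26.5, 35.7 and 20.9 FPKM in control libraries (log2 difference 1.47 ± 0.27; lost without control replicate 1 or 3, adjusted p up to 0.1). TwdlD was nearly absent from the control, with 0, 0 and 0.186 FPKM, and had 1.12 to 2.07 FPKM in transgenic libraries. Cpr49Ag rose by 1.65 ± 0.16, and none of the 3 had overlapping groups on either platform.

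Antimicrobial peptides, the secreted effectors of the Toll and Imd pathways, differed between platforms. On Illumina CecA2 and CecA1 rose, Drsl4 fell, and the remaining 14 of 17 missed the threshold; the median was 1.05. On Nanopore 0 of 14 were called and the median was -0.78, so the list lay on opposite sides of the control. CecA2 had 8.15 to 17.5 FPKM (median 10.9) in transgenic and 4.71, 2.26 and 3.66 FPKM in control libraries, a difference of 1.62 ± 0.24 (adjusted p = 0.00332, limma). On Nanopore it was 0.24 ± 0.33, with overlapping groups. The attacin AttC averaged 50.6 CPM in transgenic and 64.0 CPM in control flies on Nanopore, and passed on neither platform (adjusted p = 0.134 with limma, 0.828 with edgeR). CecA1 rose by 0.63 ± 0.12 and Drsl4 fell by 1.22 ± 0.24; both were lost without control replicate 1, 2 or 3 (adjusted p of CecA1 0.0564 to 0.119), and without control replicate 2 or 3 the list had 1 rise and 0 falls. The difference between platforms itself was not tested.

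PGRP-SC2, an amidase that degrades bacterial peptidoglycan and so damps Imd signalling, had 161 to 287 FPKM (median 180.0) in transgenic and 94.2, 94.7 and 124 FPKM in control libraries. It rose by 0.89 ± 0.17 on Illumina, where it was lost without control replicate 1 (adjusted p = 0.0896) or 2 (0.123). On Nanopore the groups were also apart, and the difference of 0.87 ± 0.21 did not pass (adjusted p = 0.0958, edgeR). Of 11 recognition proteins tested on Illumina no other was called.

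The cytochrome P450s, which oxidise toxins and hormones, gave 4 falls and 0 rises among 79 on Illumina, with a median of -0.01. Cyp6a14 had 0.690 to 1.17 FPKM (median 1.01) in transgenic and 2.77, 3.72 and 4.04 FPKM in control libraries. Cyp6w1 fell by 1.13 ± 0.19 and Cyp4d1 by 0.78 ± 0.16. In Cyp6a8 the transgenes differed: 40.1, 68.6 and 56.9 FPKM in dec2P384R, 27.5, 21.5 and 21.2 FPKM in dec2WT and 107, 120.0 and 99.6 FPKM in control libraries. Of the 4 calls only that of Cyp6a14 passed in all refits; Cyp6w1 was lost without control replicate 1 (adjusted p = 0.0555), Cyp4d1 without 5 libraries, and Cyp6a8 without 5 libraries (up to 0.174). On Nanopore 0 of 76 were called. The count of falls was 1 without control replicate 1 and 2 without control replicate 2 or 3 or dec2WT replicate 2.

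Other large Illumina changes were seen in ppk24, Acf and vanin-like, the last a member of the list of vanins. The gene ppk24, of the DEG/ENaC family of ion channels, had 0 to 0.0714 FPKM in transgenic and 2.78, 1.86 and 2.81 FPKM in control libraries, a difference of -2.50 ± 0.17. On Nanopore ppk24 was too low to test, with no count in any transgenic library and 7 counts in the control. The gene vanin-like, of the pantetheinase family, had 5.30, 6.94 and 6.75 FPKM in dec2P384R, 3.36, 3.69 and 2.54 FPKM in dec2WT and 22.2, 24.2 and 24.6 FPKM in control libraries. Acf, a subunit of a chromatin remodelling complex, had 0.799 to 1.23 FPKM (median 1.01) in transgenic and 3.08, 3.16 and 3.16 FPKM in control libraries. No library of ppk24, vanin-like or Acf crossed between the groups on Illumina. Of the 3 vanins tested on Illumina, CG32751 also fell. The count of vanins that fell was 1 without any 1 of the control replicates. On Nanopore 0 of 2 vanins were called, and 1 fell without dec2P384R replicate 2 or 3 or control replicate 3.

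MtnC, 1 of the metallothioneins that bind copper, zinc and cadmium, had the largest log2 difference of all called Illumina genes that the naming rule took, 5.77 ± 0.32 (adjusted p = 2.05e-06, limma). Its Illumina levels were 91.6 FPKM or more (median 190.0) in transgenic and 3.99, 2.31 and 2.67 FPKM in control libraries. On Nanopore the same gene had 195 CPM or more (median 298) in transgenic and 400.0, 410.0 and 237 CPM in control libraries, with overlap, and its difference was -0.31 ± 0.23 (adjusted p = 0.681, edgeR). The other 5 metallothioneins did not pass on either platform.

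Some Nanopore calls likewise did not pass on Illumina. Of the 60 Nanopore calls tested on Illumina, 59 (98.3%) lay on the same side there. Among them 47 (78.3%) had no overlap in the same direction, against 7.36% of all Illumina genes in either direction. Unc-115b, an actin-binding protein gene, had 34.6 to 45.1 CPM (median 39.2) in transgenic and 0.255, 1.47 and 1.07 CPM in control libraries, a difference of 5.39 ± 0.27 (adjusted p = 2.48e-07, edgeR). On Illumina it had 0.543 to 0.827 FPKM in transgenic and 0.259 to 0.458 FPKM in control libraries (adjusted p = 0.266, limma), without overlap. The gene lies on the same strand as p24-2, which it overlaps and which was also called on Nanopore (lost without control replicate 1, adjusted p = 0.0545), and Unc-115a is a close relative. The glutaminyl cyclase gene isoQC, which overlaps CG5969, had 86.6 to 160.0 CPM in transgenic and 25.4, 26.0 and 21.7 CPM in control libraries on Nanopore, while on Illumina it had 6.59 to 7.49 FPKM in transgenic and 7.15 to 7.76 FPKM in control libraries. CG42374 had 4.56 to 26.6 CPM in transgenic and no count in control libraries; on Illumina it is listed at 0 in all 9 libraries, as are Adhr and CG11714. All 3 share their strand with another gene, and how each platform assigned shared reads is not given. Adhr, hid (an activator of cell death), Npc2f (a sterol-binding protein) and the seminal fluid serpin Spn77Bb changed by 0.96 to 1.15 in size on Nanopore and were each lost without at least 1 control replicate.

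The w gene, an ABC transporter for eye pigment precursors, serves as a visible marker in many Gal4 and UAS constructs. It had 3.56 to 4.19 FPKM (median 3.94) in transgenic and 1.27, 1.88 and 2.00 FPKM in control libraries, a difference of 1.02 ± 0.12 (adjusted p = 0.000895, limma). The part of construct copies in these reads was not tested. On Nanopore the groups overlapped. No other of 16 eye pigment genes was called on Illumina.

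Clock, sleep and related genes did not pass. On both platforms 0 of 15 clock genes were called, also in each refit without a library; on Illumina cwo, a fly relative of Dec2 in the clock, had a difference of 0.01 ± 0.11, and Clk, per, tim and cry lay between -0.24 and 0.07. On Nanopore Clk had 20.6 to 32.1 CPM (median 29.4) in transgenic and 41.4, 41.4 and 39.7 CPM in control libraries, without overlap, and just missed the threshold (-0.65 ± 0.14, adjusted p = 0.0549, edgeR). The repressor gene h, another relative of Dec2, had 35.8 to 39.0 FPKM in transgenic and 31.5 to 37.8 FPKM in control libraries. Of sleep and arousal genes 0 of 26 were called on Illumina and 0 of 25 on Nanopore. With 2.45% of all genes called on Illumina and 0.588% on Nanopore, 0 calls do not set lists this short apart from all genes. Among insulin pathway genes Ilp5, an insulin-like peptide of brain neurosecretory cells, rose by 0.64 ± 0.12 on Illumina (4.12 to 6.11 FPKM in transgenic and 2.97 to 3.21 FPKM in control libraries), a call lost without control replicate 1, 2 or 3; on Nanopore it was -0.02 ± 0.39. In all, 22 of 43 lists had no called member on either platform, among them respiratory chain subunits, glycolysis, cytosolic ribosomal proteins and the unfolded protein response. That number of lists was not tested against the share over all genes.

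Markers of some other tissues moved on Illumina. In the accessory gland, eye and haemocyte lists the called share was above the 2.45% over all genes tested. This excess was not tested. Among 53 seminal fluid genes of the accessory gland, Illumina gave 1 rise (Acp54A1, by 1.25) and 3 falls (Sfp24Ba by 1.09, Sfp93F by 0.98 and Sfp24Bd by 0.67), with a median of 0.02 and summed levels of 14688 to 21712 FPKM in transgenic and 15240 to 19778 FPKM in control libraries. Of 26 eye genes, the photoreceptor channel gene trpl fell by 0.57 and chp by 0.48, with a median of -0.13; of 9 haemocyte markers NimC1 fell by 0.63, with a median of -0.18. On Nanopore none of these was called except Spn77Bb in the accessory gland list. The eye and haemocyte calls were lost without control replicate 2 or 3, when both lists had 0 calls, and 1 eye gene fell without dec2P384R replicate 1 or dec2WT replicate 1 or 2. The rise of Acp54A1 was lost without control replicate 2 (adjusted p = 0.112) or 3 (0.0649), and 2 accessory gland genes rose without control replicate 1. The accessory gland count of falls was 1 without dec2P384R replicate 3, dec2WT replicate 2 or any control replicate. The part of such shifts in the other gene groups was not tested.

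Some genes were read in 1 group alone. A gene entered the Illumina test with at least 0.5 FPKM in at least 3 libraries. A gene without transgenic reads thus entered only if all 3 control libraries reached that level. With no filter, 292 of the 329 Illumina calls passed again. The effect of this filter on the shares by gene type was not tested. On Illumina 5 calls had no read in any control library (mthl8, Obp58c, lncRNA:CR44333, lncRNA:CR46215 and an unannotated gene model at 2L:12826259-12828665), and 6 had none in any transgenic library, all noncoding or unannotated (snoRNA:Me28S-A2958, snRNA:U5:34A, lncRNA:CR45003, lncRNA:CR44770, lncRNA:CR43412 and an unannotated model). The unannotated model on 2L had 9.27, 9.83 and 10.2 FPKM in dec2P384R and 3.32, 1.77 and 1.98 FPKM in dec2WT libraries, and so was at least 52.7-fold higher in the transgenic group than the floor of 3 counts per control library. The share of Illumina calls was 2.05% of 11784 protein-coding genes, 5.08% of 1220 noncoding RNA genes and 10.7% of 149 models without annotation. By chromosome arm it was 2.01% on X, 3.08% on 2L, 2.38% on 2R, 2.35% on 3L and 2.42% on 3R. On the fourth chromosome 0 of 98 genes were called on Illumina and 1 of 78 (1.28%) on Nanopore. Counts this small do not set that chromosome apart from all genes. In 121 windows of 1 megabase the share of Illumina calls had a median of 2.2%. It reached 8.8% in the highest, 2L:17000001-18000000, where 6 of 68 genes were called.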

How the data were processed

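Per the labels' protocols, Illumina libraries were polyA-selected and Nanopore libraries were direct cDNA. Per the submitters' processing notes, the tools were DESeq2, Salmon, minimap2, featureCounts 1.5.0-p3 and HISAT2, without stated roles. The sources used here give neither the genome build nor the strand setting. Of 17626 gene identifiers shared with Ensembl BDGP6.54, 99.3% had identical coordinates; positions are those deposited.

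The Illumina table deposited by the authors held FPKM values for 17972 genes, although its name speaks of counts. Counts in the authors' comparison tables gave a constant for each library, and FPKM times gene length times that constant was a whole number for 100% of values within 1e-08. The Nanopore table as deposited held estimated counts for 13969 genes, 55.1% of them not whole, which were rounded. No use was made of 36 further library columns in the authors' comparison tables. One Illumina column spells P384R with its digits exchanged and was taken as dec2P384R replicate 2, the only library left for it.

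Illumina was tested with limma 3.58.1 (trended, log2(FPKM + 0.5), at least 0.5 FPKM in at least 3 libraries) and Nanopore with edgeR 4.0.16 (TMM, filterByExpr, quasi-likelihood), in R 4.3.3, with 2 groups of 6 and 3 libraries, two-sided, Benjamini-Hochberg adjustment and a threshold of 0.05. The transgenes were set against each other in a model of 3 genotypes. Both procedures were tested on simulated data. edgeR and DESeq2 1.42.0 on the recovered reads were alternatives for Illumina. Bounds against a floor of 3 counts cover counting error only. The gene lists and the comparison were chosen with earlier results of these data known. Named genes were the 12 largest rises and falls per platform past the threshold, without overlap and with at least 2 FPKM or 10 CPM, up to 5 genes with a CG symbol per direction, up to 5 members per list, genes with no read in 1 group, and cwo, h, w, per, tim, Clk and cry; the genes called on both platforms or on Nanopore, the summaries by platform, AttC, LysD and the sex markers were named after their values were seen. Promoter motifs were not analysed here.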

Additional observations from a re-analysis of the deposited data

Results flagged for a closer look

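In 6 of the genes described above, and in CG12224, the transgenes differed from each other in a 3-genotype fit, given as dec2P384R minus dec2WT on the log2 scale. On Illumina the difference was 0.93 for Try29F, 0.89 for vanin-like, 1.20 for Cyp6a8 and 1.88 for the unannotated gene model at 2L:12826259-12828665, all higher in dec2P384R, and -1.21 for gammaTry and -1.02 for deltaTry, both lower in dec2P384R (adjusted p of the difference under 0.05, limma). On Nanopore it was -1.60 for CG12224 (adjusted p = 0.0364, edgeR), which had 10.4, 5.62 and 5.02 CPM in dec2P384R, 22.6, 22.2 and 15.2 CPM in dec2WT and 49.6, 46.8 and 62.2 CPM in control libraries.

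One transgenic library lay far from the other 5 in 7 of 99 Illumina genes and 6 of 67 Nanopore genes looked at; chance flags about 1 in 20 groups. On Illumina these were CG32726 (15.8 FPKM in dec2WT replicate 3), TwdlD (1.12 FPKM in dec2WT replicate 3), CG4734 (63.1 FPKM in dec2WT replicate 1), CG2064 (18.1 FPKM in dec2P384R replicate 3), and, in dec2P384R replicate 2, CecA1 (191 FPKM), PGRP-SC2 (287 FPKM) and CG31436 (24.5 FPKM). On Nanopore they were Spn77Bb (385 CPM in dec2WT replicate 1), CG31687 (0.513 CPM) and CG6012 (3.90 CPM) in dec2WT replicate 2, CG15043 (46.6 CPM) and CG11714 (30.2 CPM) in dec2P384R replicate 2, and Set1 (40.6 CPM in dec2P384R replicate 1).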

How the results depend on the processing

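The count of pooled calls was 329 on Illumina and 67 on Nanopore. DESeq2 called 557 genes on the recovered Illumina reads and 150 on Nanopore, 307 and 64 of them shared with the calls reported. Leaving out 1 library at a time gave 139 to 406 calls on Illumina and 31 to 98 on Nanopore; for dec2P384R against dec2WT it gave 56 to 103 and 10 to 17. The labels do not say that replicate numbers mark a shared origin, and not every same-numbered pair correlated above 0.1 in its deviations (6 of 9 on Illumina, 2 of 9 on Nanopore, against 1 and 5 of 18 differently numbered pairs). On Illumina this is a hint of shared variation, with the best partner bearing the same number in 14 of 18 cases, but no pairing was assumed. With the replicate number as a block the pooled counts were 391 and 43 (299 and 41 shared with the calls reported), and the counts for dec2P384R against dec2WT were 130 and 12. Other pseudocounts, TMM or RLE scaling, edgeR on recovered reads, no filter and 3 genotypes in the fit kept both pooled counts within 1.5 times of those reported. No called log2 difference changed sign. The balance of Illumina calls did turn, from more rises to 177 higher and 229 lower without dec2P384R replicate 2 and to 161 higher and 168 lower with no filter; for dec2P384R against dec2WT, 67 higher and 38 lower became 27 and 38 without dec2P384R replicate 2. With 3 control libraries per platform, and Nanopore depth as low as 1922380 counts, small changes of low genes were not detectable.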
